A study of Mus musculus with 12 samples.

Results

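RNA of mouse embryonic fibroblasts (MEF) carrying mutated copies of Mbd3 was compared with RNA of MEF with intact Mbd3. The comparison uses 3 of the 12 arrays of the study, all those labelled MEF, with 1 array for each genotype. The -/- MEF have, by their label, 2 disrupted Mbd3 copies, and their label names no reprogramming transgene. The flox/- MEF have a deleted copy and a copy flanked by recombination sites, and carry a transgene for the reprogramming factors (Oct4, Sox2, Klf4, Myc; OSKM), silent until doxycycline (DOX) is given. The WT MEF have both Mbd3 copies and carry the same kind of transgene, and both transgenic MEF were taken before DOX. The remaining 9 arrays come from DOX-treated MEF, induced pluripotent stem cells (iPSC) and embryonic stem cells (ESC) of the same genotypes. The labels give no number of animals or cultures, no age and no strain, and each genotype of MEF stands on a single sample. For every array the labels name a stem cell medium with inhibitors and LIF, over irradiated DR4 feeder MEF. DR4 MEF are drug-resistant fibroblasts, and their lack of Hprt gives resistance to 6-thioguanine.

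Mbd3 is a subunit of the NuRD complex, which joins a chromatin remodelling ATPase of the Chd family to the histone deacetylases Hdac1 and Hdac2. The complex acts at promoters and enhancers, where it removes acetyl groups from histones and moves nucleosomes, and it is known for its role when pluripotent cells leave that state. MEF are a mixed culture prepared from whole embryos, mostly mesenchymal cells that still carry the Hox code and other signs of their position in the body. Blood-derived macrophages commonly remain in early passages.

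A gene counted as shared where its log2 signal differed from WT MEF by at least 1, a 2-fold difference, in both mutated arrays and in the same direction. Of the 13044 genes tested, 405 did so, 3.10% of all: 205 were higher (1.57%) and 200 were lower (1.53%). In the -/- array alone 399 genes were 2-fold higher (3.06%) and 516 were 2-fold lower (3.96%) than in WT MEF. In the flox/- array alone 304 were higher (2.33%) and 234 lower (1.79%). Both comparisons use the same WT MEF array, so whatever is particular to that array enters both, and with 1 array per genotype these counts carry no test. The median difference over all genes was 0.04 for -/- and 0.03 for flox/-.

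Mbd3 had a log2 signal of 8.15 in the array labelled -/-, 8.92 in flox/- MEF and 9.20 in WT MEF. It was lowest in the array labelled -/-, 2.08-fold under WT MEF, and 1.21-fold under WT MEF in flox/-. The ESC labelled -/- had 6.73, against 9.31 in WT ESC, so the fibroblast array labelled -/- kept more Mbd3 signal than the ESC array of that label. The positions of the probes within Mbd3 are not known, and a probe outside the deleted exons would check nothing. None of the 16 NuRD genes measured was 2-fold away from WT MEF in both arrays. Hdac1, a deacetylase of the complex, came nearest, with 10.57 in -/-, 10.34 in flox/- and 11.16 in WT MEF. The remodelling ATPase Chd4 had 10.67, 10.82 and 10.93 in the same order, and Mbd2, the relative of Mbd3 that takes its place in other NuRD complexes, had 10.60, 10.73 and 10.65. Apart from Mbd3, no NuRD gene reached a 2-fold difference in either array.

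The fibroblast label held on all 3 arrays. All 12 fibroblast markers, among them Col1a1, Pdgfra and Prrx1, lay above the array median in every MEF array, with a median log2 signal of 12.07 in -/-, 12.21 in flox/- and 11.64 in WT MEF. Of 7 pluripotency markers, 0, 0 and 1 lay above the array median of 6.31. All 12 fibroblast markers also lay above it in WT iPSC, at a median of 9.33, and in WT DOX day 4 cells, at 11.12. The count of fibroblast markers alone thus does not set MEF apart. The 13 macrophage markers differed strongly between the 3 MEF arrays. Their summed linear signal was 2077 in -/-, 10775 in flox/- and 19695 in WT MEF, with 8, 12 and 12 of the 13 above the array median. In a bulk sample, fewer cells of a type and less RNA per cell cannot be told apart.

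The gene that stood furthest above WT MEF in both mutated arrays was Serpina3n, an acute phase inhibitor of serine proteases. Its log2 signal was 12.45 in -/- and 12.02 in flox/-, against 6.85 in WT MEF, differences of 48.7-fold and 35.9-fold. Anxa8, a calcium-dependent membrane-binding annexin, had 10.19 and 10.38, against 6.91 in WT MEF. The mutated arrays lay within 0.20 of each other and more than 3 log2 units above WT for Anxa8. Olr1, a scavenger receptor for oxidized lipoprotein, had 10.46 in -/- and 8.45 in flox/-, against 5.34 in WT MEF. Rarres1, a retinoid-responsive membrane protein, had 10.10 and 9.49, against 6.30. Gldn, an extracellular organizer of nodes of Ranvier, had 8.93 and 8.68, against 5.45. Among these, the -/- array was the highest for every gene but Anxa8.

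Other leading higher genes encode secreted factors and enzymes. Cxcl14, a chemokine of stromal cells, had 11.93 in -/- and 11.64 in flox/-, against 8.62 in WT MEF. Nrn1, a membrane-anchored factor that promotes neurite growth, had 10.32 and 9.84, against 6.80. Adh1, an alcohol dehydrogenase that also oxidizes retinol, had 9.20 and 10.04, against 6.24, and is one of the few leading genes that stood further from WT in flox/-. Cck, the precursor of the peptide hormone cholecystokinin, had 9.38 and 7.26, against 4.62, a WT signal under the lower quartile of its array. Cyp4a12b, a fatty acid hydroxylase, had 9.02 and 7.57, against 4.22, and Ifi202b, an interferon-inducible DNA-binding protein, had 7.14 and 6.75, against 4.18. These WT signals lie under that quartile too, where background limits the size of a fold. The uncharacterized gene C330024D21Rik had 7.87 and 7.67, against 4.71.

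Zim1, an imprinted zinc finger gene, stood furthest below WT MEF. Its log2 signal was 5.47 in -/- and 5.63 in flox/-, against 10.69 in WT MEF, differences of 37.4-fold and 33.4-fold. Sfrp4, a secreted antagonist of Wnt ligands, had 6.21 and 6.55, against 10.51. Both mutated arrays sat below the array median for Zim1 and near it for Sfrp4, while the WT array was more than 4 log2 units above the median for each. F13a1, the A subunit of coagulation factor XIII and a gene of tissue macrophages, had 5.21 and 7.58, against 10.88. Nrk, an X-linked kinase of embryonic tissue, had 6.22 and 7.04, against 9.98. Car9, a carbonic anhydrase induced by low oxygen, had 5.96 and 6.38, against 9.26. Here too the WT array was high and both mutated arrays were low.

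Among the further leading lower genes, Des, the intermediate filament of muscle cells, had 7.67 in -/- and 8.12 in flox/-, against 10.55 in WT MEF. Meox1, a homeobox gene of the somites, had 4.66 and 4.61, against 7.32. Serinc2, of a family of membrane proteins for serine incorporation into lipids, had 8.36 and 8.87, against 11.35. Entpd1, an ectoenzyme that splits extracellular ATP, had 4.89 and 5.97, against 8.33, and Gprc5c, an orphan receptor, had 5.56 and 6.01, against 8.34. The other leading lower genes were Zfp979, Trim30d, 2610528A11Rik, Cdkn1c and Pf4, with WT signals between 6.48 and 9.35. Meox1, Zfp979 and Trim30d were under the lower quartile in both mutated arrays, so their folds are limited by background.

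**Figure D1:**
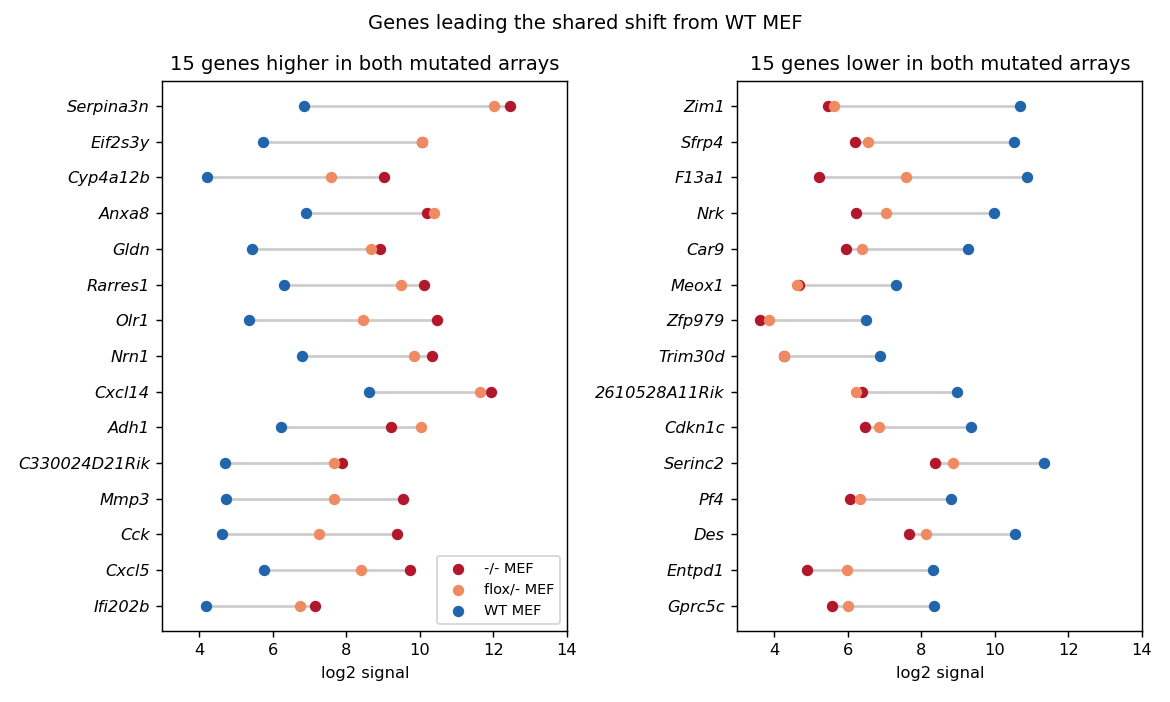
Log2 signal (horizontal axis) of the 15 genes that stood furthest above (left) and furthest below WT MEF (right) in both mutated arrays, ranked by the smaller of the 2 differences. Each point is 1 array: -/- MEF in dark red, flox/- MEF in orange, WT MEF in blue. The mutated points lie close together for Eif2s3y, Anxa8, Meox1 and Trim30d and apart for Olr1 and F13a1.

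The genes just inside the threshold were Efna1, with 6.37 in -/- and 6.61 in flox/-, against 7.61 in WT MEF, Hpgd, with 7.39 and 7.79, against 8.79, and Olfml2b, with 9.84 and 10.09, against 11.09. Just outside it were Cd52, with 5.44 and 7.83, against 8.83, Cdh3, with 9.34 and 9.90, against 10.90, and Cyp2r1, with 7.13 and 7.22, against 6.14. Only 3 genes (0.0230%) were 2-fold in opposite directions in the mutated arrays. Xist, the RNA of the inactive X chromosome, had 5.22 in -/- and 9.68 in flox/-, against 7.51 in WT MEF. Kcnma1, a potassium channel, had 5.89 and 9.24, against 7.03. Agtr2, an angiotensin receptor of embryonic mesenchyme, had 7.38 and 9.84, against 8.46. For all 3, flox/- was the high array and -/- the low one.

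A model with replicates was fitted with limma over the 7 arrays without DOX, in 4 groups: mutated MEF (n = 2), WT MEF (n = 1), mutated pluripotent lines (n = 2) and WT pluripotent lines (n = 2). Arrays of different genotype or source stand as replicates in it, and the lone WT MEF array was assumed to vary like the other groups. Mutated MEF differed from WT MEF in 31 genes (0.238%) at a Benjamini-Hochberg adjusted p under 0.05, with 17 higher (0.130%) and 14 lower (0.107%), and 1340 genes (10.3%) had an unadjusted p under 0.05. Every called gene was also on the shared list. The model uses the same 3 MEF arrays as that list, so its calls are no independent support for it. This holds for each limma value of mutated against WT MEF quoted for a single gene below. The calls rest on few arrays: 0 remained called without any 1 of -/- MEF, -/- ESC, flox/- iPSC, WT iPSC or WT ESC, and 102 genes were called without flox/- MEF, 18 of them among the 31. On the 3 MEF arrays alone limma called 0 genes, with 1719 at an unadjusted p under 0.05.

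Zim1 fell the furthest in this model, by 5.14 on the log2 scale (± 0.27 SE, limma adjusted p = 0.0238). The other called genes with the largest changes were Anxa8, which rose by 3.38 ± 0.29 (SE, adjusted p = 0.0331), Car9, which fell by 3.09 ± 0.22 (adjusted p = 0.0294), and C330024D21Rik, which rose by 3.06 ± 0.22 (adjusted p = 0.0294). Ifi202b rose by 2.77 ± 0.30, and Zfp979, Serinc2, Meox1, Cdkn1c and Pf4 fell by 2.61 to 2.74. The genes that rose further down include the kit ligand Kitl, the basement membrane collagen Col15a1, the cadherin Cdh13, the water channel Aqp5 and the neural adhesion gene Chl1. Among the genes that fell were Hoxa6 and the chemokine receptor Ccr1 and lectin receptor Clec4e of myeloid cells. Serpina3n, which had the largest difference, did not pass (5.39 ± 0.83 SE, adjusted p = 0.109).

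Among 98 genes kept with a microRNA symbol, some of them long host RNAs, 2 were higher in both mutated arrays and 0 were lower. These shares are close to the 1.57% and 1.53% of all genes. The array measures RNA of the gene region and not the mature microRNA. Both genes lie on chromosome 9, and their mature products from the 5′ arm are shown because they are the molecules by which these genes act; capitals mark the seed, bases 2 to 8 (RefSeq, GRCm38.p6).
miR-100-5p: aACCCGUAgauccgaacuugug
miR-125b-5p: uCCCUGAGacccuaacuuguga
The seeds differ, so the pair do not share a target family by seed. Mir125b-1 had 7.14 in -/- and 6.86 in flox/-, against 4.85 in WT MEF, and rose in the limma model by 2.15 ± 0.20 (SE, adjusted p = 0.0397). Mir100 had 6.51 and 6.79, against 5.45 in WT MEF. The mutated arrays lay above WT for both genes and changed order between them. The long RNA Mir100hg, annotated in the same region, had 10.29 and 10.04, against 10.54, and was not 2-fold apart in either array.

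Of 23 cytokine and chemokine genes kept, 6 were higher and 1 was lower in both mutated arrays, where 1.57% of all genes were higher and 1.53% lower, and the list median was 0.63 in -/- and 0.29 in flox/-. Cxcl5, a chemokine that draws neutrophils, had 9.73 in -/- and 8.40 in flox/-, against 5.77 in WT MEF. Il6, the cytokine that induces acute phase genes in liver, had 8.77 and 6.14, against 4.40. Cxcl1, a second neutrophil chemokine, had 7.66 and 7.62, against 5.97. For Cxcl5 and Il6 the 3 arrays stood in a graded order, and for Cxcl1 the mutated arrays were level. Ccl7 and Ccl11, chemokines for monocytes and eosinophils, had 11.51 and 11.11, against 9.84, and 6.72 and 7.06, against 5.56. The lower gene was Ccl9, a chemokine made by macrophages, with 6.39 and 8.57, against 9.86. None of these passed in the limma model, Cxcl1 coming nearest (adjusted p = 0.0514).

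Of 21 matrix proteases and inhibitors 4 were higher and 1 was lower in both arrays, against 1.57% and 1.53% of all genes. The list medians were 0.15 in -/- and 0.14 in flox/-. Mmp3, stromelysin 1, had 9.53 in -/- and 7.66 in flox/-, against 4.74 in WT MEF, differences of 27.8-fold and 7.56-fold. Mmp13, the interstitial collagenase of rodents, had 11.10 and 9.40, against 8.37. Both were highest in -/- and lowest in WT MEF. Timp3, a matrix-bound inhibitor of these enzymes, had 13.41 and 13.33, against 11.86, and Adamts9, a proteoglycan-cleaving protease, had 10.62 and 10.41, against 9.19. Adamts4, an aggrecanase, was lower, with 6.81 and 7.24, against 8.34. Mmp2, the constitutive gelatinase of fibroblasts, had 11.39 and 12.06, against 12.35.

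Transcription of Mmp3, Mmp13, Il6 and Cxcl1 is known to respond to AP-1 and NF-kappaB, and the 250 bases upstream of each start are shown for that reason (RefSeq, GRCm38.p6, plus strand). Capitals mark matches to TGANTCA for AP-1 and GGGANTTTCC for NF-kappaB, both strands searched; the motifs do not overlap.
Mmp3, chr9:7445572-7445821: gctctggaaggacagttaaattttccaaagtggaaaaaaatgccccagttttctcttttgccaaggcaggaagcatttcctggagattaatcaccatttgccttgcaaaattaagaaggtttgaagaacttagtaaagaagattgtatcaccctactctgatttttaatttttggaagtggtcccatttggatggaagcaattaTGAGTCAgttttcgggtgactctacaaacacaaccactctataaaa
Mmp13, chr9:7272264-7272513: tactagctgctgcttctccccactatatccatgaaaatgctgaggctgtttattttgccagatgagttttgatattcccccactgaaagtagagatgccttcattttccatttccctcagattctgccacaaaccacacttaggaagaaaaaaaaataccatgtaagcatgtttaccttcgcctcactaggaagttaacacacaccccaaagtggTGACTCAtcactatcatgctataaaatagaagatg
Il6, chr5:30012864-30013113: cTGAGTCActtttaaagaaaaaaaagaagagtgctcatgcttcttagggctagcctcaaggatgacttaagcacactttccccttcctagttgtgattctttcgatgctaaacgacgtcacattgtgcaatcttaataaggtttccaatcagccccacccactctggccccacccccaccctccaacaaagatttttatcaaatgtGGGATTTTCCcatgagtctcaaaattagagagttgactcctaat
Cxcl1, chr5:90890995-90891244: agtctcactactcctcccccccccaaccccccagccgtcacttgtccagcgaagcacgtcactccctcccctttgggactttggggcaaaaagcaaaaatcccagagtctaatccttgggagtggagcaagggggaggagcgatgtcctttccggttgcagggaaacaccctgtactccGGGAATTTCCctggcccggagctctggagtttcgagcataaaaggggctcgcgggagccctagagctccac
Mmp3 and Mmp13 hold an AP-1 match, Cxcl1 an NF-kappaB match, and Il6 one of each. Of the 10357 genes tested that have such a window, 4.32% hold an AP-1 match and 0.367% an NF-kappaB match. Among shared genes with a window, 8.61% of the higher and 7.14% of the lower genes hold an AP-1 match. An NF-kappaB match is held by 4 of 151 higher and 0 of 140 lower genes. Windows were looked up for 6 genes and 4 had an entry, with none for Cxcl5 and Ccl7. A match is a description of the letters and shows no binding.

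Of 24 imprinted genes kept, 4 were lower and 1 was higher in both mutated arrays, against 1.53% and 1.57% of all genes. Besides Zim1, Cdkn1c, a maternally expressed inhibitor of the cell cycle, had 6.48 in -/- and 6.85 in flox/-, against 9.35 in WT MEF, and fell by 2.68 in the limma model (± 0.21 SE, adjusted p = 0.0305). Grb10, an adaptor that restrains insulin receptor signalling, had 5.80 and 10.16, against 12.46. Mest, a paternally expressed gene of embryonic mesoderm, had 6.01 and 10.76, against 12.32. Zim1 and Cdkn1c were level between the mutated arrays, while Grb10 and Mest were below the array median of 6.31 in -/- alone, 102-fold and 79.0-fold under WT MEF. The files give no detection limit, so folds against such low signals are uncertain. Impact, a regulator of translation, was the higher gene, with 11.72 and 11.75, against 10.44. Other imprinted growth genes were not 2-fold apart in either array: Igf2 had 12.52 and 12.56, against 12.91, Dlk1 had 11.78 and 11.73, against 12.01, and Meg3 had 11.16 and 11.46, against 11.73. The list medians were -0.13 in -/- and -0.11 in flox/-.

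Of the gene lists used here, the macrophage list had the most members among the lower genes. Of 24 genes on the macrophage list, 9 were lower and 0 were higher in both mutated arrays, against 1.53% and 1.57% of all genes. The list median was -2.97 in -/- and -0.85 in flox/-, against 0.04 and 0.03 over all genes. In -/- MEF 23 of the 24 were 2-fold lower, and in flox/- MEF 9 were, against 3.96% and 1.79% of all genes. The mannose receptor Mrc1 had 5.43 in -/- and 8.73 in flox/-, against 10.90 in WT MEF. The complement gene C1qa had 5.87 and 8.41, against 9.68, and C1qc had 6.44 and 9.45, against 10.69. Cx3cr1, the fractalkine receptor of tissue macrophages, had 6.70 and 8.43, against 9.66. In all 24 genes flox/- lay below WT MEF and -/- below flox/-. Pf4, a chemokine of platelets and macrophages, differed in form, with 6.05 and 6.32, against 8.79, and it was the only list member that fell in the limma model (2.61 lower, SE 0.21, adjusted p = 0.0305).

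**Figure D2:**
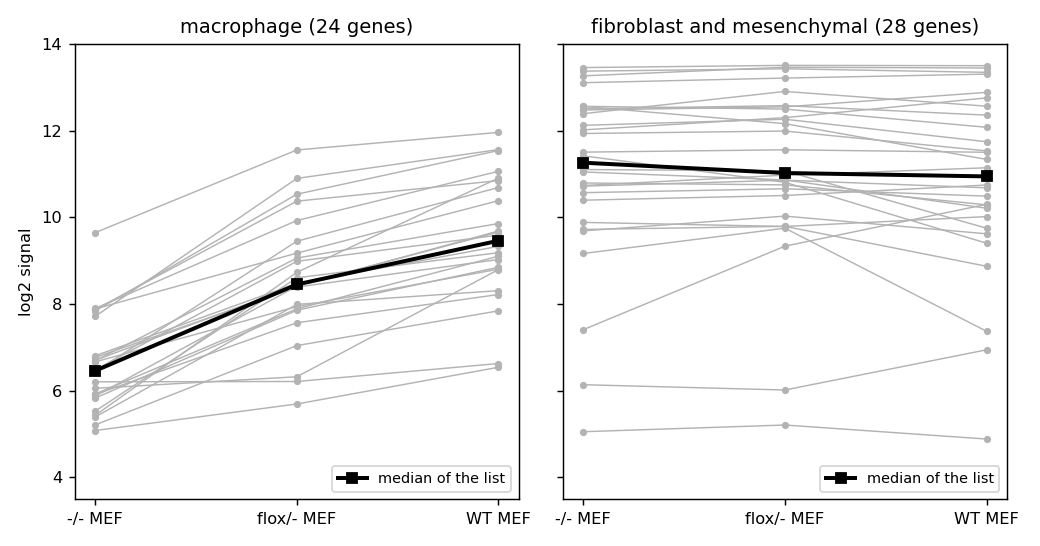
Log2 signal (vertical axis) of the macrophage list (left, 24 genes) and the fibroblast and mesenchymal list (right, 28 genes) in -/- MEF, flox/- MEF and WT MEF. Each grey line is a gene and the black line the median of the list; all macrophage lines climb toward WT MEF, with list medians of the differences from WT of -2.97 in -/- and -0.85 in flox/-, while the fibroblast median stays nearly level.

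Of 28 fibroblast and mesenchymal genes, 3 were higher and 0 were lower in both mutated arrays, against 1.57% and 1.53% of all genes. The list medians were 0.05 in -/- and 0.20 in flox/-. Dpt, a matrix protein of the dermis, had 9.16 and 9.75, against 7.37 in WT MEF. S100a4, a calcium-binding protein of motile fibroblasts, had 11.42 and 10.81, against 9.40. Twist2, a transcription factor of mesenchyme, had 11.10 and 11.07, against 9.75. The progenitor marker Cd34 was graded, with 7.41 in -/- and 9.33 in flox/-, against 10.30. Among 34 collagen genes, 2 were higher and 1 was lower, set against the same 1.57% and 1.53% of all genes. Col10a1, the collagen of hypertrophic cartilage, had 12.38 and 12.70, against 10.06, and Col15a1 had 7.83 and 7.89, against 5.89. Col2a1, of cartilage, was lower, with 7.67 and 8.06, against 9.12. Col15a1 rose in the limma model by 1.96 ± 0.18 (SE, adjusted p = 0.0397).

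Genes of limb and body position differed in both directions, with 7 of 38 higher and 2 lower in both arrays, where 1.57% and 1.53% of all genes were. Lhx9, a homeobox gene of limb mesenchyme and gonad, had 10.03 in -/- and 9.77 in flox/-, against 7.39 in WT MEF. Msx1, a homeobox gene of the limb bud and skull, had 8.30 and 8.80, against 6.14. Shox2, of the proximal limb, had 8.14 and 7.74, against 6.10, and Irx1 had 8.26 and 8.81, against 6.70. For each of these the mutated arrays lay together, above WT. Zic1, of the dorsal neural tube and dorsal mesoderm, was lower, with 7.85 and 8.24, against 9.51, and Foxd1, of facial and kidney stroma, had 6.67 and 7.75, against 8.98. The remaining higher genes were En1, Hand2 and Irx2. The list median was 0.41 in -/- and 0.23 in flox/-.

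Among 33 Hox genes, 2 were higher and 3 were lower in both arrays, against 1.57% and 1.53% of all genes. The lower ones were anterior members of the HoxA cluster: Hoxa6 had 7.48 in -/- and 7.52 in flox/-, against 9.34 in WT MEF, Hoxa3 had 6.22 and 6.22, against 7.55, and Hoxa5 had 8.53 and 8.37, against 9.80. The higher ones were of the HoxD cluster: Hoxd13, of digits and the caudal trunk, had 9.65 and 9.30, against 7.97, and Hoxd8 had 8.69 and 7.99, against 6.34. Hoxa6 fell in the limma model by 1.84 ± 0.18 (SE, adjusted p = 0.0399). Hoxc8 and Hoxc6, of the trunk, were near WT, with 10.93 and 10.53, against 10.56, and 9.59 and 9.30, against 9.46. Which part of the embryos each MEF preparation held is not in the labels, and its part in the result was not tested.

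Growth factor pathways showed a few large differences among mostly level members. The shares over all genes were 1.57% higher and 1.53% lower in both arrays. Of 32 Wnt pathway genes, 3 were higher and 1, Sfrp4, was lower in both arrays. Sfrp2, another secreted Wnt antagonist, went the other way, with 12.57 in -/- and 12.36 in flox/-, against 10.59 in WT MEF. Lgr5, an R-spondin receptor and Wnt target, had 11.67 and 11.99, against 9.65, and Axin2, a feedback inhibitor of the pathway, had 7.16 and 7.35, against 6.07. Both mutated arrays were above WT for these 3 genes. Of 15 genes of the insulin-like growth factor axis, the binding protein Igfbp3 was higher, with 12.12 and 12.48, against 10.49. Igfbp5 was lower, with 9.59 and 10.14, against 11.19, as was the protease Htra1, with 9.32 and 9.97, against 11.01. Of 30 genes of fibroblast growth factors and other kinase ligands, Kitl was higher (7.95 and 8.22, against 6.03) and Angpt2, a vessel-destabilizing ligand, lower (7.40 and 7.35, against 8.71). Of 27 genes of the TGF-beta and BMP response, 0 were 2-fold in both arrays.

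Genes of oxygen sensing and glycolysis were lower where they differed, with 3 of 24 lower and 0 higher in both arrays. The list medians were -0.24 in -/- and -0.41 in flox/-. For this paragraph's lists, the shares over all genes were 1.53% lower and 1.57% higher. Besides Car9, the aldolase Aldoc had 7.55 in -/- and 8.03 in flox/-, against 9.09 in WT MEF, and the prolyl hydroxylase Egln3 had 9.01 and 8.61, against 10.04. Among 20 genes of NRF2 and glutathione, 3 were higher: Mgst1 had 9.53 and 9.48, against 7.35, Gsta4 had 8.96 and 9.09, against 7.68, and Cbr3 had 6.52 and 6.40, against 5.15. These are enzymes that detoxify reactive compounds. All 20 genes of cholesterol synthesis lay above WT MEF in both arrays, with medians of 0.69 and 0.48, and 0 were 2-fold in both. By comparison, 7222 of all 13044 genes lay above WT MEF in -/- and 7061 in flox/-. Sqle, squalene epoxidase, had 10.66 and 10.51, against 9.61.

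Genes of DNA replication and mitosis were level in -/- (median 0.01) and lower in flox/- (median -0.40, 31 of 34 genes below WT), with 0 of 34 2-fold apart. By comparison, 5976 of all 13044 genes lay below WT MEF in flox/-. The proliferation marker Mki67 had 10.47 in -/- and 10.46 in flox/-, against 11.03 in WT MEF. Of 20 senescence and p53 genes, Cdkn1c was lower and Cdkn2b and Aen were higher in both arrays, against 1.53% and 1.57% of all genes. Cdkn2b, the inhibitor p15, had 10.64 and 10.81, against 9.47, and Aen, a p53-induced nuclease, had 8.93 and 8.84, against 7.83. Cdkn2a, of the neighbouring locus, had 9.26 and 9.62, against 8.37. In the interferon response 8 of 19 genes were 2-fold higher in flox/-, against 2.33% of all genes. In -/- 1 was, against 3.06% of all genes, and the shared gene was Xaf1. Ifit1 had 6.37 in -/- and 8.71 in flox/-, against 6.48 in WT MEF, and Usp18 had 6.95 and 8.51, against 6.60. These 2 interferon genes were high in flox/- alone.

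The shift was larger in -/- than in flox/- for most shared genes, by an amount that differed between the directions. This direct difference does not use the WT MEF array, though membership in the shared list uses all 3 MEF arrays. The counts below describe the listed genes and are no independent test of a larger shift. Of 200 lower genes, 180 (90%) lay further from WT in -/-, 53 of them by at least 2-fold, and 0 lay 2-fold less far. Of all 13044 genes, 6383 were lower in -/- than in flox/-, and the differences from WT MEF spread more widely in -/- (SD over genes 0.616) than in flox/- (0.452). Over all genes, 1.84% were 2-fold lower and 0.682% 2-fold higher in -/- than in flox/-. The median shift of the lower genes was -1.98 in -/- and -1.28 in flox/-. Of 205 higher genes, 139 (67.8%) lay further in -/-, 20 by at least 2-fold, and 3 lay 2-fold less far. Their median shift was 1.64 in -/- and 1.499 in flox/-. In a limma fit over the 7 arrays with -/- and flox/- MEF as groups of 1 array each, chosen after seeing the data and with its spread from the pluripotent lines only, 0 genes differed between -/- and flox/- MEF at an adjusted p under 0.05 (0%). In it, 464 genes (3.56%) had an unadjusted p under 0.05, 84 of them shared genes that lay further in -/-.

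**Figure D3:**
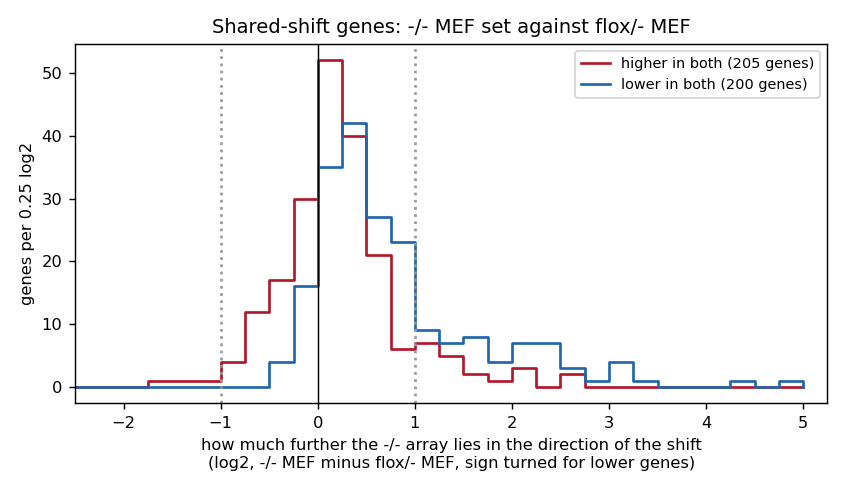
Number of shared genes (vertical axis, per 0.25 log2) by how much further -/- MEF lay from WT MEF than flox/- MEF did (horizontal axis, log2), for genes higher in both (red) and lower in both (blue). Dotted lines mark 2-fold; 53 lower genes and 20 higher genes lie at or beyond the right one, and 0 lower and 3 higher genes at or beyond the left one.

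The lower genes that extended most in -/- were Mest and Grb10, 26.9-fold and 20.6-fold below flox/- MEF. Next came Mrc1 and AI506816, 9.85-fold and 9.17-fold below flox/-, and Hprt, the enzyme of purine salvage, 8.75-fold below it. Fcrls, C1qc and Ly86, genes of macrophages, followed. Fcrls had 5.57 in -/- and 8.62 in flox/-, against 10.57 in WT MEF, and Ly86 had 5.38 and 8.33, against 9.46. Of the 53 genes, 8 were on the macrophage list, and others, such as Itgam, Msr1, C5ar1, Tlr7 and Ms4a6d, are also known from myeloid cells. Without the list, 45 of 191 lower genes (23.6%) extended by 2-fold and 171 (89.5%) lay further in -/-. The macrophage list was written with earlier results known and covers only part of such genes, and the part of macrophage RNA in the rest was not tested.

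The higher genes that extended most in -/- included secreted inflammatory and matrix genes, but also the receptor Olr1 and the hormone precursor Cck. Ppbp, a platelet chemokine precursor, had 10.96 in -/- and 8.32 in flox/-, against 7.24 in WT MEF, and Il6 was 6.21-fold above flox/-. Cck, Dynap and Olr1 were 4.35-fold, 4.17-fold and 4.05-fold above flox/-, and Mmp3, Mmp13 and Pcolce2, an enhancer of procollagen processing, were 3.67-fold, 3.23-fold and 2.93-fold above. Dynap had 9.25 and 7.19, against 5.14, and Pcolce2 had 9.40 and 7.85, against 6.63. The 3 genes that lay 2-fold further in flox/- were Apod, a lipocalin (7.34 in -/- and 8.99 in flox/-, against 6.005), Lpl, the lipase of fat cells (9.29 and 10.76, against 8.09), and 1700007K13Rik. They were picked out after their values were seen. Genes past 2-fold in 1 mutated array only were more often those of -/-: 194 higher and 313 lower in -/- alone, against 96 and 34 in flox/- alone.

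Expression in other cells was read from arrays that the shared list did not use, although the labels do not tie arrays to cultures. Of the 200 lower genes, 81 (40.5%) were also 2-fold lower in flox/- than in WT cells at DOX day 4, where 8.04% of all genes were. In flox/- over WT iPSC the share was 13% against 3.20%, and in -/- over WT ESC it was 9% against 6.06%. The lower genes were 2-fold higher in 5% at day 4 (4.82% of all genes), in 2% in iPSC (1.88%) and in 9.5% in ESC (3.88%), so in ESC they turned about as often as they kept their direction. Of the 205 higher genes, 12.7% were also 2-fold higher at day 4 (4.82% of all genes), 8.29% in iPSC (1.88%) and 6.34% in ESC (3.88%). The higher genes more often lay 2-fold lower there: 19.02% at day 4 against 8.04% of all genes, 8.78% in iPSC against 3.20%, and 19.5% in ESC against 6.06%. The lower genes thus had their highest share at day 4. In none of these 3 comparisons did more of the higher genes keep their direction than turn it, but in iPSC the counts were close, 17 and 18. Over all genes, too, fewer lay 2-fold higher than 2-fold lower in each comparison, so these raw shares do not compare keeping with turning on an equal footing. Macrophage genes were among those carried over: 6 of the 81 were on the macrophage list, and 75 of the 191 genes outside it (39.3%) were lower at day 4. C1qc had 6.13 in flox/- and 9.48 in WT cells at that day. The summed linear signal of 12 fibroblast markers at day 4 was also lower in flox/-, with 13204 against 33442 in WT cells. Its part in the day 4 shares was not tested.

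**Figure D4:**
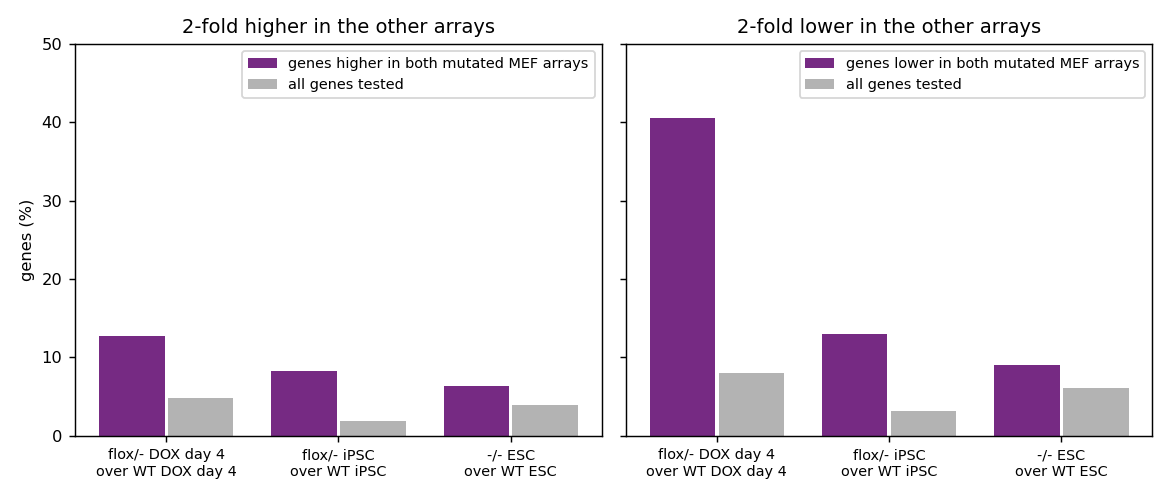
Share of genes (vertical axis, %) that were 2-fold higher (left) or 2-fold lower (right) in the other mutated arrays than in the WT array of the same stage. Purple bars show the genes shared by both mutated MEF arrays in that direction and grey bars all genes tested; the tallest bar is 40.5%, for lower genes at DOX day 4, against 8.04% of all genes.

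Limma compared flox/- with WT over DOX day 4, DOX day 8 and iPSC, with stage as a block. It called 0 genes, with 864 (6.62%) at an unadjusted p under 0.05. Of the shared lower genes 22 (11%) had such a p and a lower value, against 4.61% of all genes, and of the shared higher genes 12 (5.85%) had such a p and a higher value, against 2.02%. In the pluripotent lines limma called 29 genes (0.222%), 14 higher (0.107%) and 15 lower (0.115%), 1 of them among the shared higher genes and 0 among the lower. The shared gene was Sema5a, which was higher in mutated MEF but lower in the mutated pluripotent lines, by 2.30 on the log2 scale. A test of whether the mutated effect differed between MEF and pluripotent lines called 0 genes, with 1413 (10.8%) at an unadjusted p under 0.05. Without flox/- iPSC that test called 26 genes.

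There were 8 shared genes that were 2-fold in the same direction in all 3 other comparisons: AI506816, Anxa8, C330024D21Rik, Eif2s3y, Elobl, Grb10, Hhip and Hprt. The share of all genes that did so was not counted, so 8 cannot be read as few or many. Hprt had 5.33 in -/- MEF, 8.46 in flox/- MEF and 10.32 in WT MEF. It had 4.904 in flox/- iPSC and 10.96 in WT iPSC, and 5.84 in -/- ESC and 10.97 in WT ESC. Every WT array of the study lay above every mutated array for Hprt. AI506816 showed the same split, with 4.70 in flox/- iPSC and 9.09 in WT iPSC, and 4.99 in -/- ESC and 8.56 in WT ESC. Hhip, which binds hedgehog ligands, was higher, with 6.84 and 6.71 in -/- and flox/- MEF, against 5.06 in WT MEF, and 9.18 in -/- ESC against 5.45 in WT ESC. The labels do not give the origin of the lines, and line origin and Mbd3 allele cannot be told apart for these genes.

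**Figure D5:**
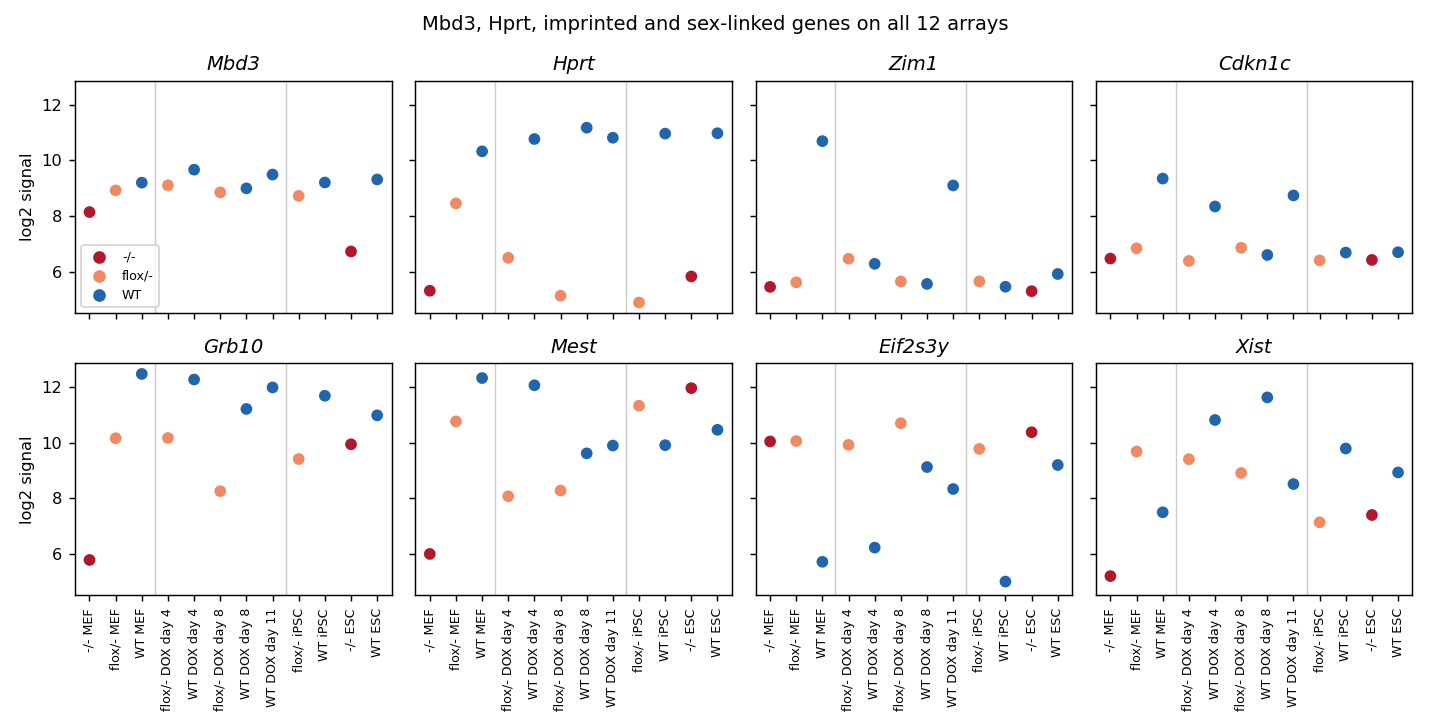
Log2 signal (vertical axis) of Mbd3, Hprt, 4 imprinted genes and 2 sex-linked genes on all 12 arrays, with MEF at the left, DOX-treated cells in the middle and pluripotent lines at the right of each panel. Dark red is -/-, orange flox/- and blue WT; Hprt separates all WT from all mutated arrays, while Zim1 is high in WT MEF (10.69) and WT DOX day 11 cells.

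Zim1 was not lower in mutated pluripotent lines, where its signal was low in all: 5.66 in flox/- iPSC and 5.47 in WT iPSC, and 5.31 in -/- ESC and 5.93 in WT ESC. Among MEF-derived cells it had 6.47 in flox/- and 6.29 in WT cells at DOX day 4, so that difference was not seen there. Cdkn1c had 6.40 in flox/- and 8.35 in WT cells at day 4. Mest was lower in flox/- at day 4 (8.08, against 12.06) and higher in both mutated pluripotent lines (11.33 in flox/- iPSC against 9.91 in WT iPSC, and 11.95 in -/- ESC against 10.46 in WT ESC). Many shared genes had low signals in pluripotent cells: 34.1% of the higher and 43.5% of the lower genes lay above the array median in no pluripotent array, against 10.4% of all genes.

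Sex-linked genes differed between the 3 MEF arrays. Eif2s3y, a translation factor on the Y chromosome, had 10.04 in -/- and 10.06 in flox/-, against 5.73 in WT MEF. Kdm5d, a Y-linked histone demethylase, had 5.94 and 6.95, against 4.99, and Uty, another Y-linked gene, had 9.44 and 9.65, against 9.61. With the Xist values above, the arrays showed 3 different patterns of sex-linked signal, and the sex of the cells cannot be told apart from genotype. Of the 443 X-linked genes 5.42% were shared, 7 higher and 17 lower. The highest autosomal share was 5.53%, on chromosome 1, and the lowest 1.30%, on chromosome 17. Chromosome 10, which carries Mbd3, had 2.64%. Of the 20 nearest neighbours of Mbd3, 12 were kept and 2 were 2-fold higher in either array. They were Reep6, with log2 differences of 1.12 in -/- and 0.96 in flox/-, and Adamtsl5, with 0.85 and 1.27. Over all genes, 3.06% were 2-fold higher in -/- and 2.33% in flox/-.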

How the data were processed

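The authors deposited log2 signals for 35512 probe sets on 12 Affymetrix mouse gene arrays, from 3.11 to 13.99. The labels name TRIzol extraction and biotin labelling; the summary and normalization methods are not given in the sources used here, and 0 columns were left out. Array medians differed by 0.122, above the limit of 0.1 set for it, so values were quantile normalized. Probe sets with a single symbol (21789) were reduced to 19938 genes, taking the probe set with the highest mean, and genes above the array median on at least 1 array were kept (13044). A 2-fold difference equals 1 on the log2 scale. Tests used limma 3.58.1 in R 4.3.3 (data.table, version 1.17.8), with Benjamini-Hochberg adjustment over all genes kept, and were tested on simulated data. The labels do not say that arrays standing as replicates came from separate cultures, so p-values measure only the spread between these samples. Arrays have no sequencing depth; their number limits the precision.

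The members and the 39 gene lists (894 entries) were chosen with earlier results of these data known. Named genes were Mbd3 and NuRD genes, the 15 shared genes in each direction with the largest smaller-of-2 difference from WT MEF, the 8 in each direction that extended most in -/-, up to 5 members of each list, sex-linked genes, Hprt, neighbours of Mbd3 past 2-fold, up to 10 genes called by limma, and genes in opposite directions. Others named to complete a group or count were chosen after their values were seen. Alternatives were the deposited values, no filter, other thresholds, other model terms and leaving out each array; the test between -/- and flox/- MEF was added after seeing the data.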

Additional observations from a re-analysis of the deposited data

Results flagged for a closer look

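Probe sets without a single gene symbol were not used in the comparison. Of 7177 such probe sets above the array median on at least 1 array, 217 were 2-fold the same way in both mutated MEF arrays, 86 higher and 131 lower.

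For 10 shared genes the mutated arrays lay at least 2-fold to one side of WT in MEF and at least 2-fold to the other in both pluripotent comparisons. These set flox/- iPSC against WT iPSC and -/- ESC against WT ESC. Shared genes that turned by less, such as Galnt17, were not counted. Limma's difference between the mutated effect in MEF and in pluripotent lines passed over all genes for none of them, with adjusted p values from 0.0643 for Sema5a to 0.474 for Mest, so a difference between the cell types was not shown. That difference was 5.96 on the log2 scale for Mmp3, 4.71 for Mmp13 and 4.26 for Timp3, genes of matrix breakdown. It was 4.02 for the chemokine Ccl7, 3.99 for the guidance molecule Sema5a and 3.97 for Prg4, the lubricin of joints. It was 3.35 for the matrix protein Prelp, 3.0002 for Rerg and 2.72 for the protease Ctsk. It was -5.38 for Mest, which was lower in mutated MEF and higher in mutated pluripotent lines. For the other 9 genes mutated MEF were higher and mutated pluripotent lines lower. Timp3, for example, had 9.44 in -/- ESC and 11.18 in WT ESC, and 6.91 in flox/- iPSC and 10.66 in WT iPSC. The summed linear signal of 12 fibroblast markers was also lower in the mutated pluripotent arrays, with 6288 in -/- ESC and 12980 in WT ESC, and 6345 in flox/- iPSC and 13823 in WT iPSC. Its part in these values was not tested.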

How the results depend on the processing

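The count of shared genes stayed within 1.5 times with the deposited values (408 genes, 189 higher and 219 lower), without the filter, with the median probe set of a gene and, in a setting chosen after seeing the data, without the macrophage list (396 genes, 205 higher and 191 lower; 65 of them 2-fold further in -/-). At 1.5-fold it was 1144 (555 higher, 589 lower), at 3-fold 121 (71 and 50), and at 1.5-fold between the mutated arrays 131 genes lay further in -/- in place of 73. For mutated against WT MEF limma called 31 genes; it called 23 with deposited values, 25 without the filter, 15 with a trended prior, 0 with iPSC and ESC as a further term (1208 at an unadjusted p under 0.05) and 0 on the MEF arrays alone (1719). Leaving out 1 array gave 0 to 102. For the pluripotent lines, 29 calls became 13 with deposited values, 0 with the further term, and 0 to 106 with 1 array left out. The difference between MEF and pluripotent lines gave 0 to 26 with 1 array left out. The flox/- comparison over 3 stages called 0 genes in every setting run. No gene named for its shift and no gene called in MEF reversed its direction, but 3 named shifts moved with deposited values and 2 with the median probe set by more than the spread of the fit; with deposited values Egr2 (0.94) and Aen (0.98) missed 2-fold (1 on the log2 scale). The cause of these changes was not tested. No paired analysis was possible because the labels carry no replicate numbers; flox/- and WT arrays were matched by stage only, and without the stage block 533 genes in place of 864 had an unadjusted p under 0.05.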

Other observations

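The remaining gene lists held at most a few shared genes each. For all of them, the shares over all genes were 1.57% higher and 1.53% lower. Of 20 immediate early genes, 2 were higher and 0 lower in both mutated MEF arrays. The nuclear receptor Nr4a1 had 10.31 in -/- and 9.70 in flox/-, against 8.60 in WT MEF, and the zinc finger factor Egr2 had 7.44 and 7.43, against 6.41 (its smaller difference, 1.02, was 0.94 with the deposited values). Of 12 retinoic acid genes 1 was higher, the retinol dehydrogenase Rdh10, with 9.99 and 10.21, against 8.95. Of 17 germline genes kept silent by DNA methylation in somatic cells 1 was higher, Slc25a31, with 5.77 and 6.24, against 4.37. Of 17 genes of small proteoglycans and elastic matrix, Tnn and Prelp were higher and Emilin1 was lower, with 8.35 and 8.66, against 9.77. Of 16 genes of cartilage and bone, Col10a1 was higher, and Col2a1 and the tendon gene Tnmd were lower, Tnmd with 7.56 and 9.59, against 10.75.

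Of 13 adipocyte genes Lpl was higher and the fatty acid transporter Cd36, also a macrophage gene, was lower, with 4.96 and 6.72, against 8.69. Of 17 keratinocyte and epithelial genes 1 was lower, Sfn, with 6.503 and 6.47, against 7.67. Des was the 1 lower gene on both the smooth muscle list (16 genes) and the skeletal muscle list (12 genes), where 0 were higher. On the lists for pluripotency (25 genes), the reprogramming factors (4), the integrated stress response (21), class I antigen presentation (9), endothelial (10), mesothelial (8), neural and glial (9), erythroid and mast cell (2) and strain-variable genes (4), 0 were 2-fold in both arrays. Among the reprogramming factors Klf4 had 9.05 in -/- and 9.49 in flox/-, against 8.11 in WT MEF, and Pou5f1 had 5.66 and 4.64, against 6.52. On the purine salvage list of 3 genes Hprt was the lower gene, and Aprt had 9.03 and 8.99, against 9.07.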
